A study of Homo sapiens with 21 samples.

Results

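Caveolae are small flask-shaped pits of the plasma membrane, and 6 genes that build them were followed: CAV1, CAV2, CAVIN1, CAVIN2, CAVIN3 and EHD2. They were chosen with earlier results of these data known and taken by symbol, as the rows of the count tables whose Ensembl identifiers carry these names. They make up 6 of the 53515 genes counted. RNA sequencing covered 17 human cancer cell lines in 21 libraries. They comprised 7 parental lines and 10 lines derived from them by exposure to rising doses of a drug over months. HepG2, from a liver tumour, gave the sorafenib-resistant HepG2S1 and HepG2S3, and the pancreatic line PancVB, labelled as derived from Panc03.27, gave the 5-fluorouracil-resistant PancB1Q and PancB1V. Of the lung cancer lines, HCC4006P1 gave the erlotinib-resistant HCC4006ER, HCC4006P2 the gefitinib-resistant HCC4006GR, and HCC827P the gefitinib-resistant HCC827GR. Of the ovarian cancer lines, IGROV-1 gave the cisplatin-resistant IGROV-1/CDDP, and UWB1.289 gave U10 and U100, which resist olaparib. HepG2, HepG2S1 and HepG2S3 were grown in William's E medium and the other lines in RPMI 1640. HepG2, HepG2S3, HCC4006P1 and HCC4006ER were sequenced in 2 libraries each and the other 13 lines in 1. The labels do not say that libraries of a line came from separate cultures, so p-values measure the spread between these libraries, which may be technical.

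Libraries held 9851195 to 36639473 reads on genes, with a median of 19498932, and levels are given as CPM, read counts scaled to a library of 1000000 reads on genes. A count of 0 allows a level of up to 3 counts, which is 0.0819 to 0.305 CPM depending on the library. 1 library stands apart: HCC4006P1 replicate 1 holds no counts past a point on chromosome 7, called the stop, with chromosomes taken in the text order of their names. Past it, 0 of the 1446 genes with 50 counts or more in replicate 2 were counted. Before it, 234 of the 10010 genes with as many counts in replicate 2 had none in replicate 1. The stop was set at the last gene with any count, so some missing values may lie before it. CAV1 and CAV2 lie past the stop, so their 0 counts in that library are missing values, and the level of HCC4006P1 is that of replicate 2 unless both libraries are named. Genes past the stop held 16.5% of the counts of replicate 2 on genes with a position. The total of replicate 1 lacks them, so its CPM of other genes are on a higher scale. Intervals are 95% Wilson intervals and cover counting error only, since reads carried no molecular identifiers. In bulk RNA, fewer expressing cells and less RNA per cell cannot be told apart.

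Caveolins are hairpin proteins that insert into the inner leaflet of the membrane and oligomerise there. CAV1 is the caveolin without which most cells form no caveolae, and CAV2 joins its oligomers and needs CAV1 to leave the Golgi. The cavins form the coat on the cytoplasmic side: CAVIN1, also called PTRF, is required for the pits to form, while CAVIN2 and CAVIN3 join it through coiled coils. EHD2 is an ATPase that rings the neck of the pit and holds it at the surface. Caveolae are abundant in endothelium, fat, muscle and fibroblasts, and scarce in hepatocytes.

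On GRCh37, CAV2 lies at chromosome 7, 115927434 to 116148595 on the plus strand, and CAV1 at 116165048 to 116201233 on the same strand. Their canonical transcripts start 25.3 kb apart. CAVIN1 lies at chromosome 17, 40554467 to 40575274 on the minus strand, CAVIN2 at chromosome 2, 192699036 to 192711814 on the minus strand, CAVIN3 at chromosome 11, 6340176 to 6341762 on the minus strand, and EHD2 at chromosome 19, 48216679 to 48246391 on the plus strand. The canonical transcripts have 2 exons (CAVIN1, CAVIN2 and CAVIN3), 3 exons (CAV1 and CAV2) or 6 exons (EHD2). CAVIN2 overlaps CAVIN2-AS1 on the other strand, which had 7 and 11 counts in the HepG2 libraries and at most 2 in any other. CAVIN3 overlaps ENSG00000282556 on the other strand, which is not among the genes counted.

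The promoters of the neighbours CAV1 and CAV2 and of CAVIN2 are shown because the first pair had its lowest level, and CAVIN2 its highest, in the same line, HepG2. Each is the 250 bases before 1 start of the gene in RefSeq (GRCh38.p14), 5′ to 3′ on the gene's strand. Every CG dinucleotide, the substrate of DNA methylation, is in capitals. CAV1 has 3 starts listed, CAV2 has 2, and CAVIN2 and EHD2 have 1 each, so other promoters of CAV1 and CAV2 are not covered. CAV1 is from chr7:116524759-116525008 on the plus strand, CAV2 from chr7:116499488-116499737 on the plus strand, and CAVIN2 from chr2:191847089-191847338 on the minus strand.
CAV1: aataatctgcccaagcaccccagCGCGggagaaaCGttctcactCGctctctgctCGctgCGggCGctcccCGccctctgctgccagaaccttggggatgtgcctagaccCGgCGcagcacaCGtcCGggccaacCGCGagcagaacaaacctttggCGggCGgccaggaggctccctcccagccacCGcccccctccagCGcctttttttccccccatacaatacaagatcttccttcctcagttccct
CAV2: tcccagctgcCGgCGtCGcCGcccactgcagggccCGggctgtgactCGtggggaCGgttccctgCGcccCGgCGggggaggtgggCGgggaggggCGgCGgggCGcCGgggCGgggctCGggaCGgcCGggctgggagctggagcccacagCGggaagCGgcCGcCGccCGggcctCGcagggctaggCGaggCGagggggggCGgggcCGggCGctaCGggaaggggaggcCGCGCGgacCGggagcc
CAVIN2: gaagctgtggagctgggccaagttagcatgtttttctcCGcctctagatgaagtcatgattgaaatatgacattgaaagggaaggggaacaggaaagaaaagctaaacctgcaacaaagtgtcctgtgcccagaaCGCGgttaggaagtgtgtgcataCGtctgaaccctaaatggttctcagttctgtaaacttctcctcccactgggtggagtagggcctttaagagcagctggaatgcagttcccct

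CAV2 has the promoter richest in CG, with 35 dinucleotides and a GC content of 83.2%, and 94.4% of the 27305 promoters in the table have fewer. The CAV1 promoter has 18 (63.6% GC) and that of EHD2 20 (69.6% GC), against a median of 11 over all promoters. The CAVIN2 promoter has 4 (48.0% GC), and 30.1% of promoters have fewer. The GC box GGGCGG, searched on both strands, had 6 matches in the CAV2 window, 3 in CAV1, 1 in EHD2 and 0 in CAVIN2, and 42.3% of all promoters hold it. GGAATG, the core bound by TEAD factors, was found 1 time, in CAVIN2, and is held by 11.9% of all promoters. TATAAA (11.1% of promoters), CACGTG (6.49%) and TGANTCA (6.60%) were found in none of these 4 windows. CAVIN1 and CAVIN3 had no entry.

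CAV1 had the widest range among the 5 genes other than CAVIN3. HepG2 had 2 and 4 counts of CAV1, or 0.0546 and 0.115 CPM, while the other lines ran from 86.6 CPM (81.8 to 91.7) in HCC4006P2 to 2087 CPM (2068 to 2106) in PancVB. The 3 pancreatic lines were the highest, with 1693 CPM in PancB1Q and 1431 CPM in PancB1V. UWB1.289 at 662 CPM and HCC4006P1 at 661 CPM came next, and their counting intervals overlap. HCC827GR had 444 CPM, U100 326 CPM, IGROV-1 323 CPM and HCC827P 297 CPM. Below these lay HCC4006ER at 240.0 ± 37.9 CPM (SD, n = 2), U10 at 181 CPM, HepG2S3 at 164 ± 9.41 CPM (SD, n = 2), IGROV-1/CDDP at 142 CPM, HCC4006GR at 134 CPM and HepG2S1 at 128 CPM. Of the 16 steps between neighbours in this order, 4 were between lines whose counting intervals overlap.

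CAV2, the partner caveolin, was lower and more even. HepG2 again had the least, 0.324 ± 0.110 CPM (SD, n = 2), from 9 and 14 counts. The other 16 lines lay between 47.6 ± 0.724 CPM (SD, n = 2) in HCC4006ER and 374 CPM (367 to 381) in PancB1Q. The low end above HepG2 also held HepG2S1 at 71.4 CPM, HCC4006P2 at 74.0 CPM and HepG2S3 at 79.5 ± 2.55 CPM (SD, n = 2). PancVB had 334 CPM, PancB1V and HCC827GR both 297 CPM, IGROV-1/CDDP 277 CPM and UWB1.289 272 CPM. In this order 6 of the 16 steps joined lines with overlapping intervals. Over the 17 lines, the log2 levels of CAV1 and CAV2 had a Pearson correlation of 0.929, and of 0.750 without HepG2. These are descriptions, since lines of 1 parent share an origin and HCC4006P1 is given by 1 library.

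CAVIN1, the coat protein needed for caveolae, was detected at over 50 CPM in every library. HepG2 had the least here too, 68.7 and 56.4 CPM. HCC827P followed at 96.8 CPM, and then U100 at 151 CPM and HCC4006P2 at 153 CPM, whose intervals overlap. IGROV-1/CDDP had the most, 1727 CPM (1711 to 1744), above PancB1Q at 966 CPM. PancB1V at 827 CPM and PancVB at 826 CPM could not be separated by counting error, and IGROV-1 followed at 768 CPM. The median over parental lines was 174 CPM and over resistant lines 507 CPM. The same medians were 323 and 211 CPM for CAV1, 224 and 131 CPM for CAV2, 7.08 and 6.81 CPM for CAVIN2, and 14.3 and 18.9 CPM for CAVIN3. Such medians ignore the pairing, and parents with more than 1 resistant line weigh more in the resistant median.

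CAVIN2 ran the other way in HepG2. That line had the highest level of all, 54.3 and 78.2 CPM, followed by PancVB at 34.5 CPM and UWB1.289 at 23.5 CPM. It was barely detected in the HCC827 lines, with 3 counts in HCC827P (0.173 CPM, 0.0588 to 0.509) and 1 count in HCC827GR (0.0643 CPM, 0.0114 to 0.364). The median over the 17 lines was 7.08 CPM. Overlapping intervals joined 9 of the 16 steps, so much of the middle of the order was not resolved even by counting error. The spread between libraries of a line is not in these intervals, so other steps may not be resolved either.

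CAVIN3, a coat protein that binds protein kinase C delta, had 0 counts in both HepG2 libraries and in PancVB. These allow levels of up to 0.0819 and 0.0861 CPM in the HepG2 libraries and 0.138 CPM in PancVB. Its highest levels were in the HCC4006 lines: 113 ± 4.94 CPM (SD, n = 2) in HCC4006ER, 70.7 CPM in HCC4006P1, 43.8 CPM in HCC4006GR and 34.1 CPM in HCC4006P2. Scaled to reads before the stop, the libraries of HCC4006P1 had 71.4 and 88.9 CPM and those of HCC4006ER 136 and 144 CPM. The remaining 11 lines lay between 4.21 CPM in HCC827P and 23.0 CPM in IGROV-1/CDDP.

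EHD2, the neck ATPase, was at 1.77 and 1.64 CPM in HepG2 and between 16.6 CPM in U100 and 209 ± 2.52 CPM (SD, n = 2) in HCC4006ER elsewhere. PancVB had 156 CPM, HCC827GR 142 CPM and HepG2S1 131 CPM. Its parental median was 64.6 CPM and its resistant median 86.5 CPM, and 8 of the 16 steps in its order joined overlapping intervals.

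**Figure D1:**
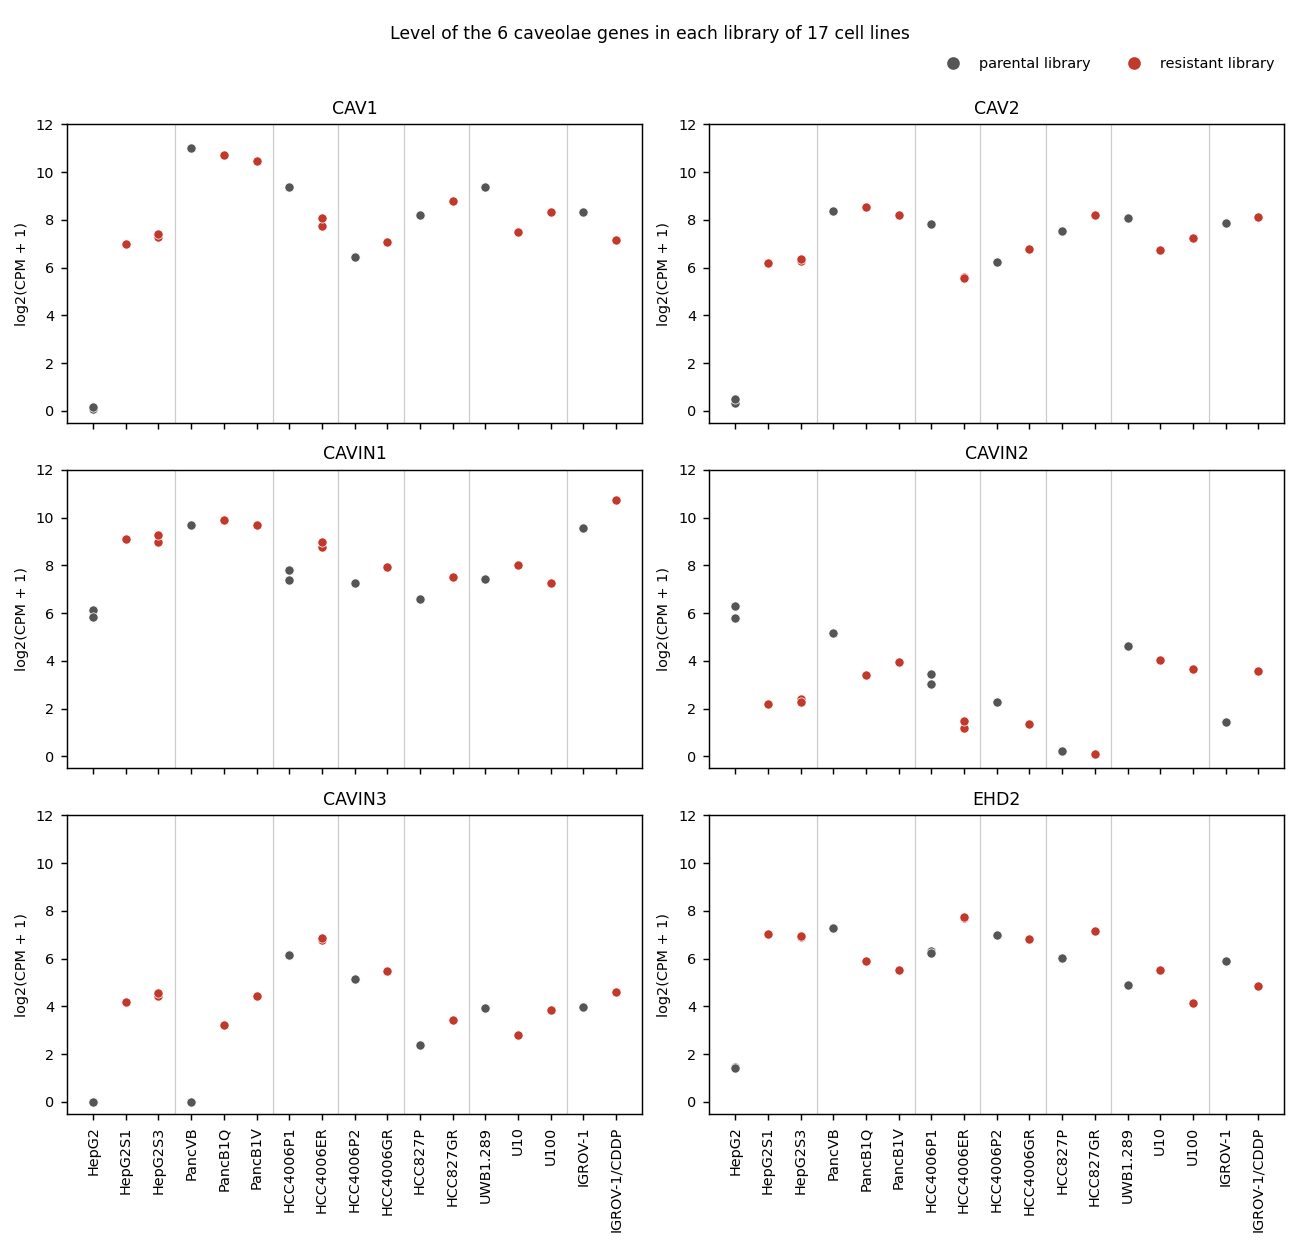
Level of each caveolae gene as log2(CPM + 1), with 1 panel per gene and 1 point per library, parental libraries in grey and resistant ones in red. Vertical lines part the families of 1 parental line, and CAV1 and CAV2 have no point for HCC4006P1 replicate 1. The other points of that library are scaled to a total without genes past the stop, which raises them. HepG2 is lowest for CAV1, CAV2, CAVIN1 and EHD2 and highest for CAVIN2, and PancVB is highest for CAV1 at 2087 CPM.

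Levels between genes were compared per kilobase of the canonical transcript. On this scale CAV1 was the most abundant of the 6 in 9 lines, CAVIN1 in 7 and CAVIN2 in 1, HepG2. CAVIN2 was the least abundant in 15 lines, and CAVIN3 in HepG2 and PancVB. In HepG2, CAVIN2 made up 54.4% of the summed per-kilobase level of the 6 genes, CAVIN1 44% and CAV1 0.0866%. In HepG2S1 the same shares were led by CAVIN1 at 53.7%, with CAV1 at 18.4%, and in PancVB by CAV1 at 68.0%. The per-kilobase ratio of CAV1 to CAVIN1 ran from 0.00197 in HepG2 to 5.54 in UWB1.289, and that of CAV1 to CAV2 from 0.315 in HepG2 to 7.50 in PancVB.

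The makeup also differed between some resistant lines and their parental lines. CAV1 made up 53.8% of the sum in HCC4006P1 and 23.5% in HCC4006ER, where CAVIN1 was at 31.8% (12.6% in HCC4006P1) and CAVIN3 at 26.4% (13.7% in HCC4006P1). In the IGROV-1 pair CAVIN1 went from 47.0% to 72.3% and CAV1 from 28.7% to 8.65%. In UWB1.289 CAV1 made up 61.2%, against 36.0% in U10 and 53.5% in U100. These shares were not tested, and they assume that the canonical transcript is the one expressed.

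**Figure D2:**
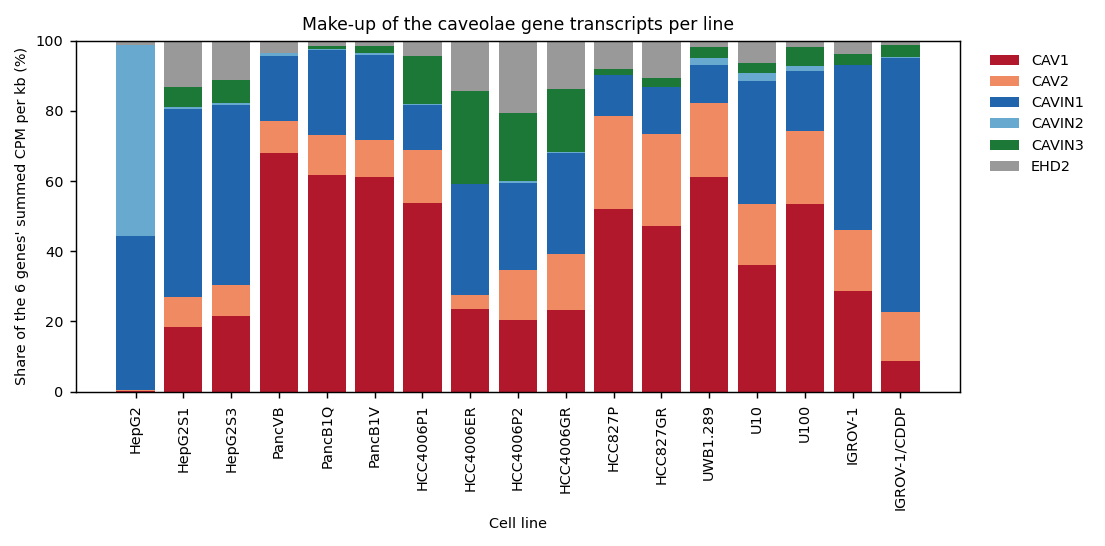
Share of each caveolae gene in the summed per-kilobase level of the 6 genes, in percent, with 1 bar for each of the 17 lines. CAVIN2 takes 54.4% of the HepG2 bar and little of the others, and CAV1 takes 68.0% in PancVB and 8.65% in IGROV-1/CDDP.

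Each resistant line was then set against its own parental line, as the difference of log2(CPM + 1), a scale that understates changes of genes near 0. HepG2S1 and HepG2S3 share a control, as do PancB1Q and PancB1V, and U10 and U100. A difference whose 95% counting interval excluded 0 is called beyond counting error. Over all pairs and all genes with at least 1 CPM in either line, 39.0% of values were higher and 35.7% lower beyond counting error, so most genes pass this mark in most pairs. CAVIN1 was higher in 8 pairs, lower in 1 and within counting error in 1. CAVIN3 was also higher in 8, lower in 1 and within in 1, and CAVIN2 was lower in 8, higher in 1 and within in 1. CAV1 was higher in 4 and lower in 6, CAV2 higher in 6 and lower in 4, and EHD2 higher in 5 and lower in 5. Of the 60 values, 18 were higher by 1 or more on the log2 scale and 15 lower by as much, where 11.9% and 9.13% of all values were.

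The HepG2 pairs held the largest differences. In HepG2S1, CAV1 was higher by 6.89 and in HepG2S3 by 7.25 on the log2(CPM + 1) scale, from 0.0546 and 0.115 CPM in HepG2 to 128 CPM in HepG2S1 and 157 and 170.3 CPM in HepG2S3. CAV2 went from 0.246 and 0.402 CPM to 71.4 CPM in HepG2S1 and 77.7 and 81.3 CPM in HepG2S3. EHD2 reached 131 CPM in HepG2S1 and 118 and 121 CPM in HepG2S3. For these 3 genes every library of either resistant line lay above both HepG2 libraries, as it did for 54.0% of all genes in HepG2S1 and 53.3% in HepG2S3, while 37.3% and 33.9% lay below. As ratios of CPM, CAV1 was 1510-fold (698 to 4160) higher in HepG2S1 and 1932-fold (895 to 5308) in HepG2S3, with 6 counts in all in HepG2. CAV2 was 220-fold (147 to 352) and 246-fold (164 to 390) higher, and EHD2 76.6-fold and 70.2-fold.

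The cavins split in these lines. CAVIN1 was 8.69-fold higher in HepG2S1, at 544 CPM, and 9.0-fold in HepG2S3, at 507 and 618 CPM. CAVIN3 was at 17 CPM in HepG2S1 and 20.7 and 22.3 CPM in HepG2S3, at least 202-fold and at least 256-fold higher than the 3 counts per library that 0 allows in HepG2. CAVIN2 was lower, at 3.55 CPM in HepG2S1 and 4.34 and 3.79 CPM in HepG2S3, with differences of -3.88 and -3.73 on the log2(CPM + 1) scale. In each line 5 of the 6 genes were higher and CAVIN2 lower. Of all genes, 51.2% were higher and 35.3% lower beyond counting error in HepG2S1, and 56.3% and 36.9% in HepG2S3.

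In the pancreatic lines CAV1 and CAV2 stayed high and close to PancVB. CAV1 differed by -0.30 in PancB1Q and -0.54 in PancB1V, and CAV2 by 0.16 and -0.17. CAVIN1 differed by 0.23 in PancB1Q, and its 0.00 in PancB1V was within counting error. The other 3 genes moved more: CAVIN3 went from 0 counts to 8.23 CPM in PancB1Q and 20.9 CPM in PancB1V, at least 59.6-fold and at least 152-fold higher. EHD2 was 2.63-fold lower in PancB1Q, at 59.4 CPM, and 3.43-fold lower in PancB1V, at 45.7 CPM. CAVIN2 was 3.61-fold and 2.37-fold lower. Both lines are compared with 1 control library. In PancB1Q 3 of the 6 genes were higher and 3 lower (32.6% and 46.1% of all genes), and in PancB1V 1 was higher and 4 lower (38.2% and 38.4%).

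In HCC4006ER both caveolins were lower and EHD2 was higher. CAV1 went from 661 CPM in HCC4006P1 replicate 2 to 213 and 267 CPM, 2.76-fold lower, and CAV2 from 224 CPM to 48.1 and 47.0 CPM, 4.72-fold lower. Against the same replicate 2, EHD2 was 2.81-fold higher, at 207 and 210.4 CPM against 74.3 CPM. CAVIN1 was 2.08-fold and CAVIN3 1.59-fold higher, and CAVIN2 4.62-fold lower. Of all genes 49.0% were higher and 33.5% lower beyond counting error, and of the caveolae genes 3 and 3. For all 6 genes the libraries of HCC4006ER lay on 1 side of every library of HCC4006P1 that covered the gene. So did most genes: before the stop 42.9% lay above and 34.4% below in this way, and past it, where 1 parental library remains, 62.0% and 32.1%.

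The gefitinib-resistant HCC4006GR, from the HCC4006P2 stock, had CAV1 1.55-fold and CAV2 1.49-fold higher than its parental line, at 134 and 111 CPM. CAVIN1 was 1.59-fold higher, at 243 CPM, and CAVIN2 2.4-fold lower. EHD2 differed by -0.15 and CAVIN3 by 0.35 on the log2(CPM + 1) scale. In all, 4 of the 6 were higher and 2 lower, where 27.8% and 37.6% of all genes were. HCC4006GR and HCC4006ER had opposite signs for CAV1, CAV2 and EHD2, a difference that was not tested. In HCC827GR all 5 genes other than CAVIN2 were higher than in HCC827P, by 1.49-fold (CAV1), 1.61-fold (CAV2), 1.91-fold (CAVIN1), 2.29-fold (CAVIN3) and 2.20-fold (EHD2). CAVIN2, at 3 and 1 counts, was within counting error. Of all genes, 38.1% were higher and 34.0% lower beyond counting error in HCC827GR.

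The olaparib-resistant lines had less CAV1 and CAV2 than UWB1.289. CAV1 was 3.65-fold lower in U10 and 2.03-fold lower in U100, and CAV2 differed by -1.36 and -0.84 on the log2(CPM + 1) scale. CAVIN1 was higher in U10 (255 against 174 CPM) and lower in U100 (151 CPM), and EHD2 was higher in U10 (44.8 against 29.0 CPM) and lower in U100 (16.6 CPM). CAVIN3 was lower in U10, by 1.12 on the same scale, and its -0.09 in U100 was within counting error. In U10, 2 of the 6 genes were higher and 4 lower (30.3% and 31.4% of all genes). In U100, 5 were lower and 0 higher, where 23.7% of all genes were lower and 33.7% higher beyond counting error.

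The cisplatin-resistant IGROV-1/CDDP was the only line with CAVIN2 higher than in its parental line, at 10.9 CPM against 1.75 CPM, 6.23-fold (4.57 to 8.65). CAVIN1 was 2.25-fold higher, CAV1 2.27-fold lower and EHD2 2.14-fold lower. CAV2 differed by 0.23 and CAVIN3 by 0.59 on the log2(CPM + 1) scale, both higher beyond counting error. With these, 4 of the 6 genes were higher and 2 lower, against 33.9% and 40.4% of all genes.

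**Figure D3:**
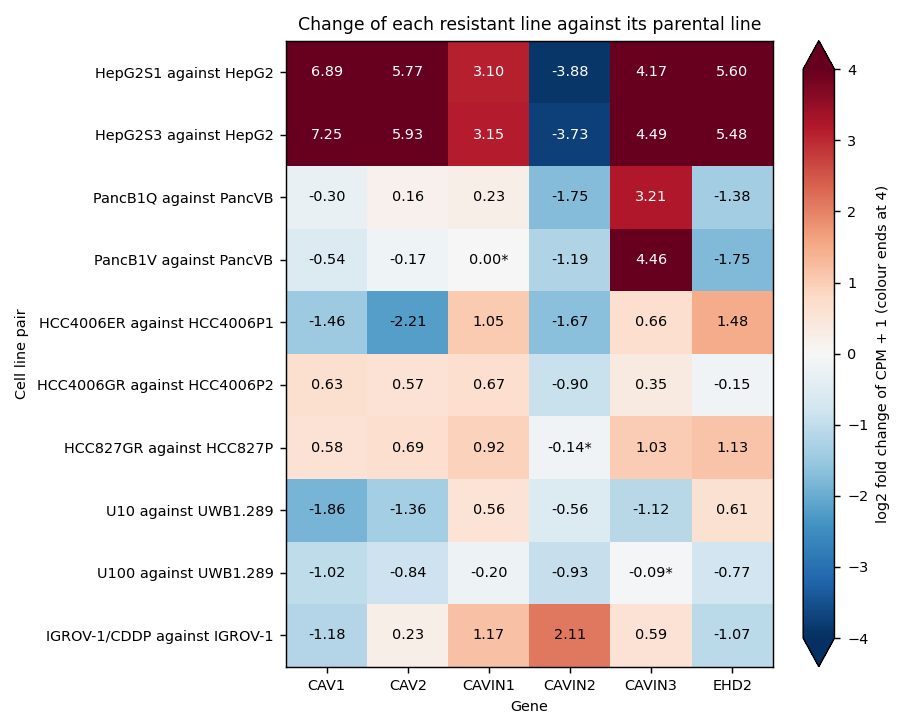
Difference of log2(CPM + 1) between each resistant line and its parental line for each caveolae gene, as a grid of pairs (rows) by genes (columns) with the value printed in each cell, red for higher and blue for lower. A star marks a value within counting error, and the colour ends at 4. The CAVIN1 column is red in 8 pairs, the CAVIN2 column blue in all but IGROV-1/CDDP, and the HepG2 rows hold the deepest colours.

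HepG2S3 against HepG2 was 1 of the 2 comparisons with libraries in duplicate. Here edgeR's quasi-likelihood test with Benjamini-Hochberg adjustment called 10744 of 16929 genes, 63.5%, with 31.4% rising and 32.1% falling. The median log2 fold change over all genes tested was -0.01 and over the 6 caveolae genes 6.71. CAV1 rose by 10.56 (SE 0.27, adjusted p = 2.6e-05), CAV2 by 7.62 (SE 0.26, adjusted p = 3.9e-05) and EHD2 by 5.81 (SE 0.16, adjusted p = 3e-05) on the log2 scale. CAVIN1 rose by 2.85 (SE 0.18, adjusted p = 0.00018) and CAVIN2 fell by 4.34 (SE 0.25, adjusted p = 0.00013). CAVIN3 rose too (adjusted p = 0.00013), and its fitted 12.33 rests on a HepG2 level of 0 and is no bound on the change. Without any 1 of the 4 libraries, the estimates ran from 10.12 to 11.13 for CAV1, 7.30 to 7.98 for CAV2, 2.70 to 3.01 for CAVIN1, -4.57 to -4.07 for CAVIN2 and 5.74 to 5.88 for EHD2.

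The marker genes of other cell types moved in the same comparison. The summed level of the hepatocyte list went from 21174 to 38483 CPM in HepG2 to 27.8 to 28.7 CPM in HepG2S3 and 0.609 CPM in HepG2S1, and 6 of 6 fell in HepG2S3. The fibroblast list was at 14.9 to 35.6 CPM in HepG2, 349 to 462 CPM in HepG2S3 and 563 CPM in HepG2S1, and 2 of its 4 tested members, DCN and LUM, rose, while COL3A1 and PDGFRA had at most 18 counts in these libraries. The endothelial, adipocyte and muscle lists stayed at or below 89.0, 4.73 and 7.83 summed CPM in every library of the series, and the 1 member tested from each fell. The endothelial sum covers 4 of the 5 genes listed, since 1 could not be matched. Epithelial genes moved in both directions. The list of 3 pancreatic ductal markers went from 455 to 736 summed CPM in HepG2 to 2907 to 3246 CPM in HepG2S3 and 2836 CPM in HepG2S1, where KRT7 rose by 11.15 in HepG2S3 while SOX9 fell by 8.67 and KRT19 fell by 1.39. The list of 3 ovarian carcinoma markers went from 4.53 to 5.38 CPM to 6.76 to 10.4 CPM, where MUC16 rose by 7.61 while WT1 fell by 6.72 and PAX8 fell by 2.57. VIM, an intermediate filament of mesenchymal cells, rose by 13.11, and CDH1, the epithelial cadherin, fell by 8.40. The part of these marker changes in the change of the caveolae genes was not tested.

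For HCC4006ER against HCC4006P1, genes before the stop were tested in 4 libraries, and 5536 of 13122, 42.2%, were called by edgeR, 20.8% rising and 21.4% falling. The 234 genes before the stop that lacked counts in HCC4006P1 replicate 1 alone of its 2 libraries were not set apart, which may affect these numbers. EHD2 rose by 1.48 (SE 0.14, adjusted p = 0.0028) and CAVIN2 fell by 2.42 (SE 0.26, adjusted p = 0.0039). CAVIN1 rose by 1.26 (SE 0.30, adjusted p = 0.030) and CAVIN3 by 0.72 (SE 0.17, adjusted p = 0.028). The calls of CAVIN1 and CAVIN3 were lost without HCC4006ER replicate 1 (adjusted p = 0.087 and 0.14) and without HCC4006ER replicate 2 (adjusted p = 0.13 and 0.19). Scaled to reads before the stop, CAVIN1 was at 173 and 285 CPM in HCC4006P1 and 536 and 633 CPM in HCC4006ER, so the groups did not overlap but the parental libraries differed.

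CAV1 and CAV2 could be tested only against HCC4006P1 replicate 2, which is assumed to vary as the HCC4006ER libraries did. In this fit of 3 libraries CAV1 fell by 1.64 (SE 0.10) and CAV2 by 2.42 (SE 0.11), and 61.9% of 16597 genes were called by edgeR, 30.8% rising and 31.2% falling. The adjusted p-values, 2.7e-54 for CAV1 and 2.7e-102 for CAV2, rest on the closeness of the HCC4006ER libraries and are too small. The fibroblast list was at 15.4 to 21.1 summed CPM in HCC4006P1 and 219.6 to 281 CPM in HCC4006ER, where 6 of 6 rose. The lung list was near 0 in both lines, at 0.205 to 0.695 and 0.506 to 0.565 summed CPM, with its lineage factor NKX2-1 near 0 as well, while HCC4006P2 had 296 CPM. The ductal list was at 3545 to 4360 CPM in HCC4006P1 and 214 to 271 CPM in HCC4006ER, and with 4 libraries 3 of 3 fell, with log2 fold changes of -9.61 for KRT19, -3.69 for KRT7 and -0.78 for SOX9. In the same fit CDH1 fell by 5.70 and VIM rose by 1.40. The sums of HCC4006P1 cover both its libraries, with replicate 1 on its higher scale. The part of these lists in the caveolae values was not tested.

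The difference between the changes of the replicated pairs was tested in 1 edgeR fit of 7 libraries, which called 48.5% of genes, 24.3% higher and 24.2% lower in HCC4006ER relative to HepG2S3, and all 6 caveolae genes passed. CAV1 (-12.19, SE 0.34) and CAV2 (-10.03, SE 0.27) were the furthest apart of the 5 genes counted in HepG2, and CAVIN2 (1.96, SE 0.41) the closest together with CAVIN1 (-1.97, SE 0.25). This fit was chosen after seeing the data. HCC4006P1 enters it by 1 library, which is assumed to vary as the libraries of the other lines did, so the SEs may be too small.

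**Figure D4:**
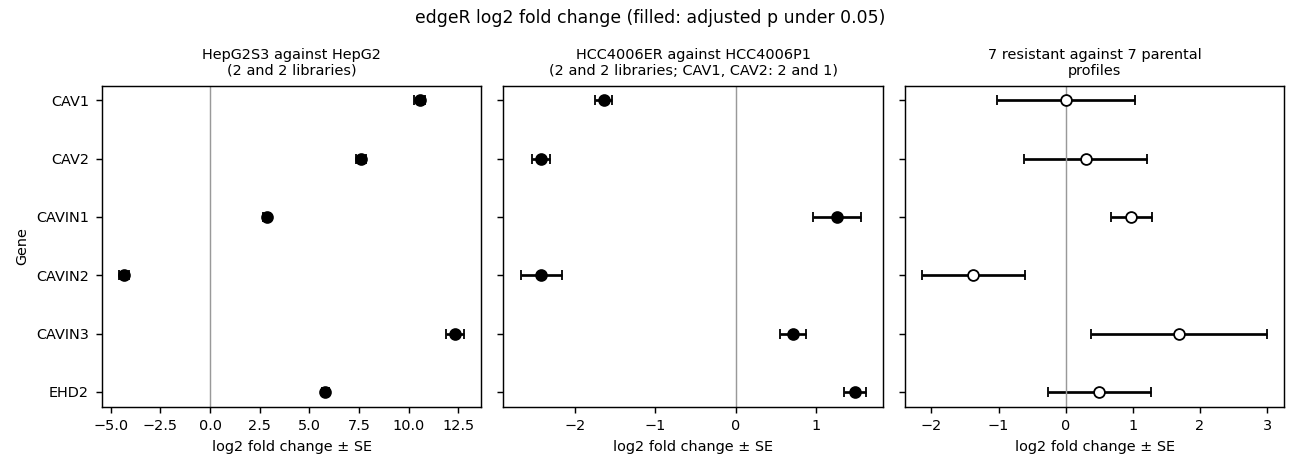
edgeR log2 fold change with its standard error for each caveolae gene in HepG2S3 against HepG2, in HCC4006ER against HCC4006P1 and in the 7 resistant against the 7 parental profiles, with filled points for an adjusted p under 0.05. CAV1, CAV2 and EHD2 lie at 5.81 to 10.56 in HepG2S3, while CAV1 and CAV2, from 3 libraries, lie below 0 in HCC4006ER. The CAVIN3 value of HepG2S3 is fitted against a parental level of 0, and no point of the 7 parental lines is filled.

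Across parental lines the question was whether a gene moved 1 way in resistant lines in general. With resistant lines of 1 parent summed, 7 resistant profiles were compared with 7 parental ones, with the parent as a term. edgeR called 0 of 15847 genes (0.0%) at an adjusted p under 0.05, with 722 at an unadjusted p under 0.05, and DESeq2 called 104. CAVIN1 had the clearest shift of the 6, with a log2 fold change of 0.98 (SE 0.31, unadjusted p = 0.012, adjusted p = 0.98 by edgeR). The others were at 0.01 (SE 1.03) for CAV1, 0.30 (SE 0.91) for CAV2, -1.37 (SE 0.77) for CAVIN2, 1.68 (SE 1.31) for CAVIN3 and 0.50 (SE 0.77) for EHD2, and none of the 6 passed.

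The CAVIN1 differences by parental line, as means over the lines of 1 parent, were 3.12 in HepG2, 1.17 in IGROV-1, 1.05 in HCC4006P1, 0.92 in HCC827P, 0.67 in HCC4006P2, 0.18 in UWB1.289 and 0.11 in PancVB on the log2(CPM + 1) scale. All 7 were above 0, with a mean of 1.03 ± 1.01 (SD, n = 7). This holds for means per parent only. The UWB1.289 value averages U10 at 0.56 and U100 at -0.20, which was lower beyond counting error. That of PancVB averages PancB1Q at 0.23 and PancB1V at 0.00, which was within counting error. Of 15376 genes, 229 (1.49%) were above 0 in all 7. A two-sided exact sign-flip test over the parental lines gave p = 0.0156 for CAVIN1, the smallest p that 7 lines allow, unadjusted and 1 of 6 genes so tested. HCC4006P1 and HCC4006P2 are stocks of 1 cell line. With both merged the mean was 1.06 over 6 lines with exact p = 0.0312, the smallest p that 6 allow, and without HepG2 the mean over the other 6 parental lines was 0.68, with the same exact p = 0.0312. CAVIN3 was above 0 in 6 of 7 (mean 1.46 ± 1.87, exact p = 0.0625), and CAVIN2 was above 0 in 1 of 7 (mean -0.95 ± 1.78, exact p = 0.203). CAV1 was above 0 in 3 of 7 (mean 0.54 ± 3.01, exact p = 0.891), CAV2 in 4, or 5 with TMM-scaled library sizes (mean 0.57 ± 2.55, exact p = 0.719), and EHD2 in 3 (mean 0.75 ± 2.37, exact p = 0.609), each SD far larger than its mean.

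CAV1 and CAV2 sit between TES and MET on chromosome 7, and 6 genes around them were followed. From the CAV1 start, TFEC, a transcription factor gene, lies 365 kb before it and TES, for a focal adhesion protein, 315 kb before it. MET, the receptor of hepatocyte growth factor, lies 147 kb after it, CAPZA2, an actin capping subunit, 286 kb, ST7 428 kb and the ligand gene WNT2 798 kb after it. Over the 10 pairs TES ran from -0.62 to 0.53 and CAPZA2 from -0.25 to 0.92, neither passing 1 in any pair. MET ran from -2.03 to 1.23, past 1 in 3 pairs, while TFEC (-0.12 to 2.34), ST7 (-0.32 to 1.00) and WNT2 (-0.10 to 2.80) passed it in 1 pair each.

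In HepG2S3 the neighbours moved far less than the caveolins. MET went from 134.5 and 146.6 CPM to 280.1 and 293 CPM and rose by 0.71 (SE 0.12, edgeR adjusted p = 0.0047), while ST7 (0.25, adjusted p = 0.22), TES (0.13, adjusted p = 0.81) and CAPZA2 (-0.20, adjusted p = 0.33) did not pass. So 1 of the 4 tested rose, where 31.4% of all genes did. In HCC4006ER, MET fell by 2.22 (SE 0.11), from 559 CPM to 128 and 144 CPM, a size close to that of CAV2. There CAPZA2 was at -0.43, ST7 at -0.39 and TES at -0.25, while WNT2 rose from 0 counts, at least 38.9-fold. These values rest on the same 3 libraries as those of CAV1 and CAV2, with 1 parental library. A shared change of the region was not tested.

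**Figure D5:**
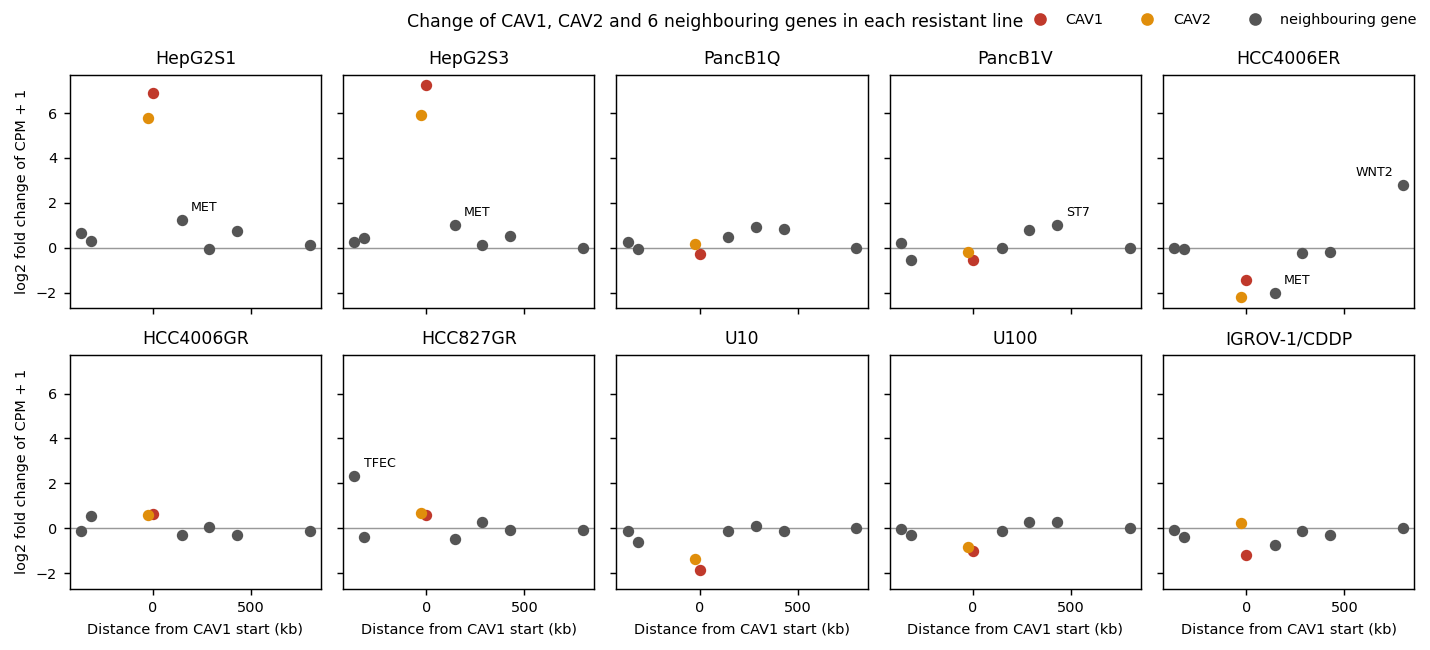
Difference of log2(CPM + 1) in each pair for genes around CAV1, against their distance in kb from the CAV1 start, with 1 panel per resistant line, CAV1 in red, CAV2 in orange and neighbours in grey (named where past 1). The HepG2 pairs reach 7.25 at CAV1 and 5.93 at CAV2, and MET, 147 kb away, spans -2.03 to 1.23.

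Other genes of caveolae and of neighbouring endocytic routes were counted from lists chosen with earlier results of these data known. Of 11 other caveola-associated genes, 9 were tested in HepG2S3: 2 rose, 3 fell, and their median was -0.04, where 31.4% of all genes rose and 32.1% fell. ROR1, a receptor that holds CAV1 and CAVIN1 together at the membrane, rose by 4.42 (SE 0.19, adjusted p = 6.6e-05), and FLNA, which ties caveolae to actin, by 1.45 (SE 0.15, adjusted p = 0.00091). EHD3, a relative of EHD2, fell at least 5.25-fold to 0 counts, and EHD1 fell by 0.71 (SE 0.21). Of the clathrin coat and adaptor genes, 11 were tested: 4 rose, led by AP2B1 (1.76, SE 0.19) and AP2S1 (1.54, SE 0.14), and EPS15 fell by 0.82 (SE 0.14), with a median of 0.28. Neither of the 2 flotillin genes, which mark another membrane raft route, passed.

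In HCC4006ER, with 4 libraries, 8 of the other caveola-associated genes were tested: EHD3 (1.65, SE 0.15) and PACSIN1 (1.07, SE 0.20) rose, and EHD4 (-1.60, SE 0.24) and PACSIN2 (-1.10, SE 0.10), an F-BAR protein of the caveolar neck, fell. ROR1 was at 0.19 (SE 0.21) and did not pass. Of 10 clathrin genes, 0 rose and 2 fell, EPS15 (-0.66, SE 0.10) and AP2B1 (-0.51, SE 0.10), and 1 of the 2 flotillin genes fell, FLOT2 (-0.36, adjusted p = 0.048). Of all genes in this fit, 20.8% rose and 21.4% fell. Of the muscle forms of the core genes, CAV3 was at or below 0.258 CPM in every library and CAVIN4 at or below 10.4 CPM. The median of CAVIN2 over the lines was 7.08 CPM.

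Among 10234 genes with a mean of at least 10 CPM, those whose log2 levels over the 17 lines were most like CAV1 were GJC1 (Pearson r = 0.887), HDHD5 (0.877), PLEC (0.876), MSN (0.875) and PPIE (0.871). Without HepG2 these were 0.843, 0.518, 0.776, 0.504 and 0.654, so the likeness of HDHD5 and MSN rested most on that line. For CAVIN1 they were SCARA3 (0.906), STAG1 (0.903), DCLK2 (0.891), GAS2L1 (0.888) and MYL6 (0.875), and without HepG2 0.930, 0.883, 0.905, 0.854 and 0.836. These are the top of many correlations, over lines that share parents, and are given as descriptions.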

How the data were processed

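Sequencing of poly(A) RNA was read from per-library tables in which the authors deposited whole-number read counts per Ensembl gene, not normalized, 1 table for each library. The submitters' processing notes name the genome hg19 and Bowtie, TopHat, SAMtools and HTSeq. The labels name a stranded mRNA kit. The study's methods name that kit, with reads mapped by Bowtie and TopHat, or a 3′ tag kit, with reads mapped by Star. They do not say which library had which, and Star is not in the submitters' notes. If kits differed, per-kilobase levels could differ between lines. Rows that name no gene held 28.0% to 42.8% of reads and were left out. Of 53515 genes, 45100 had a position in the GRCh37 annotation. The 6 genes and all lists were chosen with earlier results of these data known.

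Pairs of lines were taken from the labels and the study's methods. CPM used the total on genes, with a pseudocount of 1 on the log2 scale. Tests used edgeR 4.0.16 (quasi-likelihood, TMM, filterByExpr) in R 4.3.3, fitted to all genes and adjusted by Benjamini-Hochberg at 0.05, with DESeq2 1.42.0 as an alternative. Only the groups compared entered a fit. The tests were also run on data simulated from these counts. Alternatives were TMM-scaled sizes, a pseudocount of 0.1, no filter, a replicate block, leaving out each library, and keeping the 0 counts past the stop. Named genes were the 6, the neighbours of CAV1, from each list up to 2 members that rose most and 2 that fell most in a test, and the 5 most like CAV1 and CAVIN1. Genes named beyond these were chosen after their values were seen. Same-numbered libraries had deviations from their group means that correlated at 0.00747 (HepG2 and HepG2S3) and 0.315 (HCC4006P1 and HCC4006ER). Libraries of a line differed by more than sampling noise (chi-square per degree of freedom 5.85 to 98.6).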

Additional observations from a re-analysis of the deposited data

Results flagged for a closer look

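The replicated pairs were compared in 1 edgeR fit of 7 libraries, chosen after seeing the data and without HCC4006P1 replicate 1, which called 48.5% of 19770 genes. The change in HCC4006ER minus that in HepG2S3 differed from 0 for all 6 genes. It was -12.19 for CAV1 (SE 0.34, adjusted p = 1.5e-06), -10.03 for CAV2 (SE 0.27, adjusted p = 1.5e-06) and -4.50 for EHD2 (SE 0.18, adjusted p = 4.1e-06). For the cavins it was -1.97 for CAVIN1 (SE 0.25, adjusted p = 0.00062), 1.96 for CAVIN2 (SE 0.41, adjusted p = 0.0068) and -11.60 for CAVIN3 (SE 0.43, adjusted p = 8.5e-06). The CAVIN3 value is fitted against 0 counts in HepG2. HCC4006P1 enters by 1 library, whose spread is taken from the other lines, so the SEs and adjusted p-values may be too small. CAV1 and CAV2 differed in sign between the pairs, while CAVIN1, CAVIN3 and EHD2 were higher and CAVIN2 lower in both resistant lines. Drug and tissue cannot be told apart between these pairs.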

How the results depend on the processing

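In HepG2S3 all 6 genes kept direction and call under every alternative, while the genes called ran from 7341 to 13242 when 1 library was left out. In HCC4006ER, leaving out 1 library at a time gave 1659 to 8623 genes called and 2 to 4 of the 4 caveolae genes before the stop. It was 8595 and 8623 without HCC4006P1 replicate 1 and 2, and 1659 and 1907 without HCC4006ER replicate 1 and 2. With the 0 counts past the stop kept, 3417 genes and 2 caveolae genes were called, with CAVIN1 at 1.24 (adjusted p = 0.11), CAVIN3 at 0.69 (adjusted p = 0.10), CAV1 at -0.64 (adjusted p = 0.92) and CAV2 at -1.41 (adjusted p = 0.81). A stop at the last gene with 2 counts, chosen after seeing the data, called 6266 genes and all 4 (adjusted p from 0.00029 to 0.011). In the fit of 3 libraries DESeq2 called 6648 genes against 10281 by edgeR.

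Across 7 parents, DESeq2 called 104 genes against 0, with CAVIN1 at an adjusted p of 0.19. Estimates near 0 changed sign there. CAV1 was -0.00297 with DESeq2 and -0.0589 with HCC4006P1 and HCC4006P2 summed. Without 1 parent each, CAV1 ran from -0.53 to 0.31, CAV2 from -0.24 to 0.73 and EHD2 from -0.0207 to 0.87, each lowest without HepG2, and CAV1 was also below 0 without HCC4006P2 (-0.15) and without HCC827P (-0.12). CAVIN1 had exact p = 0.0156 by the sign-flip test but an adjusted p of 0.98 by edgeR. Its means per parent were above 0 in 7 of 7 with TMM-scaled sizes as well. No pair value changed sign with TMM-scaled sizes, a pseudocount of 0.1 or a library left out. TMM scaling moved the median of all genes by 0.42 in HepG2S1, 0.39 in HepG2S3, -0.20 in PancB1Q and 0.16 in HCC4006ER.

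With the replicate block, 10561 genes and 6 caveolae genes were called in HepG2S3 and 5770 genes and 4 caveolae genes in HCC4006ER, so it changed no call of theirs. The libraries share only a number. The block could not be fitted with 3 libraries, and leaving out a HCC4006ER library there left no residual degrees of freedom. Depth limits CAV1 in HepG2, CAVIN2 in the HCC827 lines and CAVIN3 in HepG2 and PancVB.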
